A study of Mus musculus with 13 samples.

Results

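Semaphorins, ephrins, Slits and netrins are the 4 classical families of axon guidance cues. Their genes and those of their receptors were followed here in bone of the mouse tail, in 4 groups of samples. The set holds every gene whose annotated symbol begins with Sema, Plxn, Efn, Epha, Ephb, Slit, Robo, Ntn or Unc5, together with Nrp1 and Nrp2 and without the Slitrk genes. Its members were taken by symbol, with earlier results of these data known. The array carries 102 probes for 67 such genes. A probe was tested where its detection p-value, the chance of such a signal from background alone, was under 0.01 on at least 2 of 13 arrays. This left 62 probes of 46 genes, out of 16226 probes and 10992 named genes tested on the whole array. The 21 genes with no tested probe are Efna2, Efna3, Epha1, Epha5, Epha6, Epha10, Ephb3, Ephb6, Sema3g, Sema4g, Sema6a, Plxna1, Plxna3, Plxna4, Slit1, Robo2, Ntn1, Ntng2, Unc5d, Unc50 and Unc5cl. The last 2 of these match by symbol and are not netrin receptors. Unc5a was detected on 2 arrays and so lies just inside the filter, while Epha6, Plxna1 and Robo2 were detected on 1 array each and lie just outside it.

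All samples were total RNA of caudal vertebral bone from mice aged 9 months on a C57BL/6x129Sv/B6 hybrid background. There were 4 WT samples, 4 samples from Prkaca+/- mice, 3 samples of bone lesions from Prkar1a+/- mice and 2 such lesion samples from Prkar1a+/-Prkaca+/- mice, here the double heterozygotes. Prkar1a encodes a regulatory subunit of protein kinase A, the cAMP-dependent kinase, which holds the catalytic subunits inactive, and Prkaca encodes a catalytic subunit. Every Prkar1a+/- sample was a lesion and no other sample was, so an effect of the lesion and one of the Prkar1a allele cannot be told apart. Whether same-group samples came from different mice is not stated in the labels, and p-values therefore reflect no more than the scatter among these arrays.

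Guidance cues were named for steering growing axons, but they act wherever cells repel or attract each other. Ephrins are ligands held on the cell surface, the A class by a lipid anchor and the B class by a membrane-spanning segment, and both the Eph receptor tyrosine kinase and the ephrin can signal on contact. Class 3 semaphorins are secreted and signal through plexins, most of them with a neuropilin as co-receptor, whereas classes 4 to 7 are membrane-bound. Slits bind Robo receptors, and netrins bind Dcc, neogenin and the Unc5 receptors. In bone, ephrin-B2 of osteoclasts and EphB4 of osteoblasts are known to signal to each other, semaphorin 4D from osteoclasts restrains bone formation through plexin-B1, and semaphorin 3A restrains osteoclasts through neuropilin-1.

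The regulatory sequence of these genes is shown first, because protein kinase A acts on transcription through CREB, a factor that binds the cAMP response element. Promoter windows from 250 bases before to 50 bases after the RefSeq start site (GRCm38.p6) were at hand for 43 of the 46 tested genes, 54 windows in all. The palindromic element TGACGTCA was found in 1 of these 54 windows (1.85%), that of Epha2, and in 1.79% of the 32851 windows of all genes. Its core TGACG, searched on both strands and contained in the palindrome, was found in 9 of the 54 (16.7%) and in 20.8% of all windows. The core was in 6 of the 27 windows (22.2%) of genes that were higher in lesions and in 0 of the 7 windows of genes that were lower. The Runx core TGTGGT was in 13% of member windows and 16.8% of all windows, and the AP-1 site TGANTCA was in 3.7% and 7.81%. The windows of 3 genes are printed 5′ to 3′ on the strand of the gene, with the core, or the palindrome that contains it, in capitals. These genes are among those with the largest rises below: Epha2 (chr4:141300971-141301270, plus strand), Efnb1 (chrX:99135811-99136110, plus strand) and Unc5b (chr10:60831532-60831831, minus strand).
Epha2: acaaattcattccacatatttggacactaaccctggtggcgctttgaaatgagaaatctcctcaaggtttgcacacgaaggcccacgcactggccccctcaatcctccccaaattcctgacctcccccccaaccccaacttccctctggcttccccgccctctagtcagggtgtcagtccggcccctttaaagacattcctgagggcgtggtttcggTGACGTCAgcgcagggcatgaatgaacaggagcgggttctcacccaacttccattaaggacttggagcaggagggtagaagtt
Efnb1: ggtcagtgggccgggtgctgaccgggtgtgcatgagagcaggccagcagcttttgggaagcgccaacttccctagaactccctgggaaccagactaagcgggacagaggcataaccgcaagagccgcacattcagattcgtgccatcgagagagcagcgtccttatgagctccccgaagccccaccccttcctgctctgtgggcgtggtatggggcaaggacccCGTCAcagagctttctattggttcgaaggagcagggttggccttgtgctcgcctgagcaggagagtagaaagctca
Unc5b: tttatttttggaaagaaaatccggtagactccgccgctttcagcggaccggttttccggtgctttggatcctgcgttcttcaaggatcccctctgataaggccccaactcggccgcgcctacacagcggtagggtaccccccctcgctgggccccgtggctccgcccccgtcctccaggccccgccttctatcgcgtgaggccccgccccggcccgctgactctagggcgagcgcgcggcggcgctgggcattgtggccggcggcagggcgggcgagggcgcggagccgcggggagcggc
The palindrome of Epha2 begins 33 bases before the start site, and the core of Efnb1, read on the opposite strand, begins 26 bases before it. The Unc5b window holds neither, although Unc5b had the largest rise of all 46 genes. The windows of Efna5 and Robo1, which also rose more than Epha2, hold neither and are not printed. These matches describe letters in a window and say nothing about binding.

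Between 13555 and 14831 probes were detected per array. Prkar1a fell by 1.40 ± 0.10 (SE) on the log2 scale in the lesions (adjusted p = 5.37e-07) and was lower in every lesion array than in every other array. The marker lists of other cell types moved with the lesions as well. For comparison, 26.2% of all named genes were higher and 25.8% lower in lesions, at the threshold used below. All 8 tested osteoblast markers and 7 of 9 osteoclast markers were higher, and the mean log2 intensity of the osteoblast list was 11.49 to 12.27 in lesions against 8.32 to 9.51 in non-lesion bone. Of 11 tested skeletal muscle markers 8 were lower, and their mean was 9.68 to 13.27 against 13.34 to 13.78, lowest in the Prkar1a+/- lesion replicate 2. Macrophage markers were higher for 5 of 7 genes, stromal fibroblast markers for 7 of 8 and endothelial markers for 4 of 9. Adipocyte markers were lower for 5 of 5 genes, and Schwann cell and neuron markers for 3 of 4, with means of 8.82 to 10.08 against 10.62 to 11.06. Smooth muscle and pericyte markers were lower for 5 of 7 genes, with means of 8.58 to 9.53 against 9.61 to 10.497, and erythroid markers for 3 of 3. Of 8 T and NK cell markers 3 were higher and 1 was lower, and of 7 chondrocyte markers 2 were higher. The part of these shifts in the results below was not tested. In a bulk sample, fewer cells of a type and less RNA per cell cannot be told apart.

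The 5 lesion arrays were first compared with the 8 arrays of bone without a lesion. Of 6 tested ephrins 5 rose, and Slit2, Slit3 and Robo1 rose together with the receptors Epha2, Epha3, Unc5b and Unc5c and 6 of 9 membrane-bound semaphorins, whereas Sema6c, netrin-4, netrin-G1, Plxnb3 and 3 class 3 semaphorins fell. Of the 46 tested genes 20 were higher (43.5%), 7 were lower (15.2%) and 19 did not pass, at an adjusted p under 0.05 in limma, a linear model with a moderated test, adjusted over all tested probes. Only 7 of these 27 calls, all of them rises, held under every alternative described below in which the gene was tested. Sema3e, among the falls, has a probe that passed the detection filter through non-lesion arrays alone. Over all 10992 named genes 52% passed, 26.2% higher and 25.8% lower, so changes were common on the whole array. The median log2 difference was 0.35 over the 46 genes and -0.008 over all genes. All 5 lesion arrays lay above all 8 others for 14 members and below them for 1, Sema6c, where the backgrounds over all genes were 14.9% and 13.2%. A level below is a log2 normalised intensity, which can be compared between arrays for 1 probe but not between probes.

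**Figure D1:**
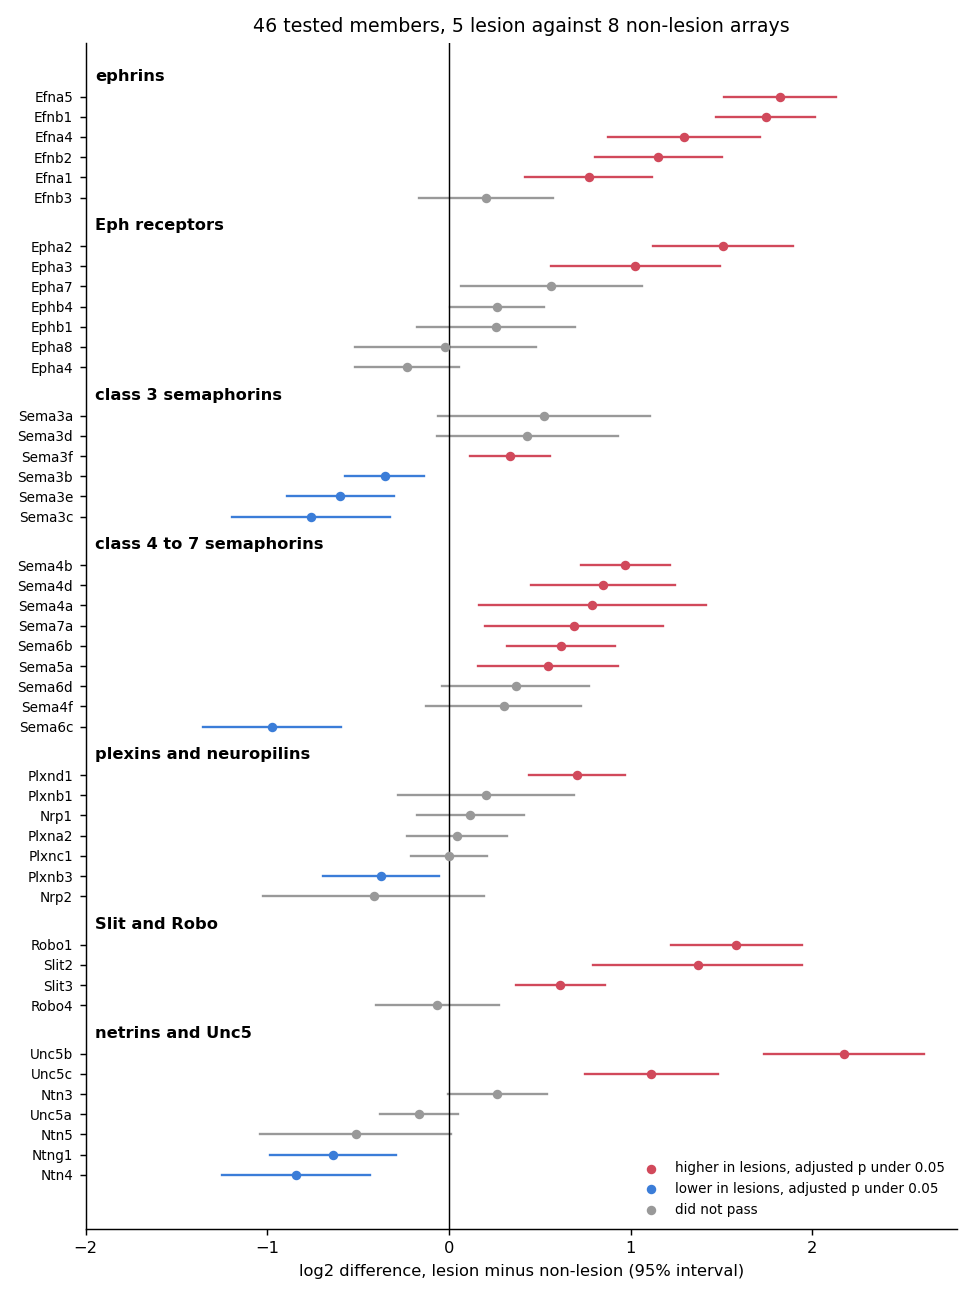
Log2 difference between 5 lesion and 8 non-lesion arrays for the 46 tested genes, grouped by family, with points at the estimate and bars for the 95% interval from limma. Red marks 20 genes higher and blue 7 genes lower at an adjusted p under 0.05, and Unc5b stands farthest to the right at 2.18. Sema3e and Unc5a, detected on 0 lesion arrays, are drawn at their measured difference.

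Of the 6 tested ephrin ligands 5 were higher and 0 were lower. Efna5 encodes ephrin-A5, an A class ligand. Its level was 10.81, 11.18 and 11.06 in the Prkar1a+/- lesions and 11.09 and 10.31 in the double heterozygote lesions. In non-lesion bone it ran from 8.78 to 9.27 with a median of 9.04. Every lesion array was more than 1 log2 unit above the highest non-lesion array. The rise was 3.54-fold (95% interval 2.85 to 4.39), a log2 difference of 1.82 ± 0.14 (SE, adjusted p = 1.41e-06). A second, dimmer Efna5 probe was detected on 2 lesion arrays and 0 of 8 others. It passed the filter through those lesion arrays alone, so its test is no separate support, and no fold is given for it.

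Efnb1 encodes ephrin-B1, a B class ligand whose loss disturbs the shaping of the skull and face. Its level was 10.07, 10.04 and 10.03 in the Prkar1a+/- lesions and 10.24 and 9.73 in the double heterozygote lesions. Non-lesion arrays ran from 8.02 to 8.71 around a median of 8.24. The 3 Prkar1a+/- lesions had an SD of 0.02, and no lesion array overlapped the others. The rise was 3.35-fold (interval 2.77 to 4.05), a log2 difference of 1.74 ± 0.13 with an adjusted p of 7.75e-07, the smallest among the 46 genes.

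Efnb2 encodes ephrin-B2, the B class ligand known from arteries and from osteoclasts. It read 8.0, 8.56 and 8.50 in the Prkar1a+/- lesions, 8.30 and 8.55 in the double heterozygote lesions, and from 6.57 to 7.70 (median 7.27) in non-lesion bone. The groups did not overlap, and the rise was 2.22-fold (log2 difference 1.15 ± 0.16, adjusted p = 0.00011). Efna4, encoding ephrin-A4, read 6.35, 6.71 and 6.27 in the Prkar1a+/- lesions, 6.23 and 6.63 in the double heterozygote lesions, and 4.62 to 5.71 (median 5.04) elsewhere. It was detected on 5 of 5 lesion arrays and on 3 of 8 others, and it rose 2.45-fold (1.29 ± 0.19, adjusted p = 0.000173). A second Efna4 probe, detected on 5 lesion arrays and 0 others, was at least 1.35-fold higher. It passed the filter through the lesion arrays alone. Efna1, encoding ephrin-A1, a ligand of EphA2 known from blood vessels, read 9.05, 9.13 and 8.63 in the Prkar1a+/- lesions, 8.86 and 9.12 in the double heterozygote lesions, and 7.77 to 8.56 (median 8.18) elsewhere. Its lesion arrays all lay above the others, the lowest of them by less than 0.1, and the log2 difference was 0.77 ± 0.16 (adjusted p = 0.00173). Efnb3, the remaining B class ligand, differed by 0.21 ± 0.17 and did not pass (adjusted p = 0.337).

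**Figure D2:**
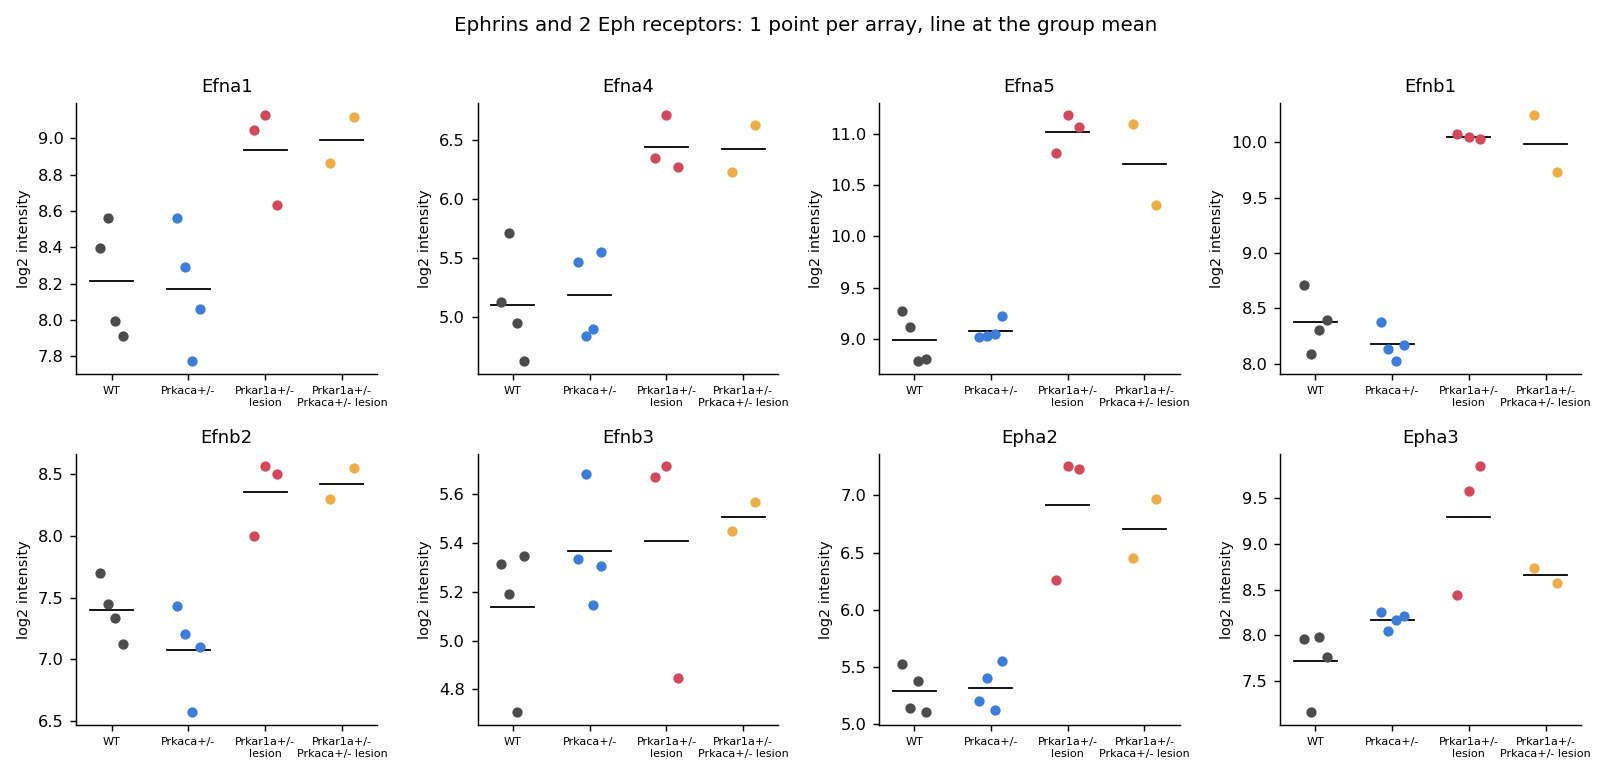
Log2 intensity of 6 ephrins and the receptors Epha2 and Epha3 in WT, Prkaca+/-, Prkar1a+/- lesion and double heterozygote lesion samples, 1 point per array and a line at each group mean. Lesion points lie above all non-lesion points for every gene shown except Efnb3, whose Prkar1a+/- lesion replicate 3 is at 4.85.

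Of the 7 tested Eph receptors, 2 were higher in lesions and 0 were lower. Epha2 encodes a receptor of A class ephrins. Its level was 6.26, 7.25 and 7.23 in the Prkar1a+/- lesions, 6.46 and 6.96 in the double heterozygote lesions, and 5.10 to 5.55 (median 5.29) in non-lesion bone. It was detected on all 5 lesion arrays and on 3 of 8 others, and the groups did not overlap. The rise was 2.85-fold (interval 2.18 to 3.72), a log2 difference of 1.51 ± 0.18 (adjusted p = 3.33e-05). Epha3, another A class receptor, known from mesenchymal cells, read 8.44, 9.57 and 9.84 in the Prkar1a+/- lesions and 8.74 and 8.57 in the double heterozygote lesions, against 7.16 to 8.25 (median 8.02). Replicates 2 and 3 of the Prkar1a+/- lesions stood above the other lesion arrays. The log2 difference was 1.03 ± 0.22 (adjusted p = 0.00166), and 2 further Epha3 probes rose by 0.63 and 0.62. The receptors that did not pass were Epha7 (0.56 ± 0.23, adjusted p = 0.0567), Ephb4 (0.26), Ephb1 (0.26), Epha8 (-0.02) and Epha4 (-0.23). Ephb4, the osteoblast receptor of ephrin-B2, had a difference of 0.26 ± 0.12 with an adjusted p of 0.0834, and passed at 0.32 without the WT replicate 1. Epha7 passed at 0.65 and 0.71 without replicate 1 or 2 of the Prkar1a+/- lesions.

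Of the 6 tested class 3 semaphorins, the secreted ones, 3 were lower and 1 was higher. Sema3c, known from the outflow tract of the heart, differed by -0.76 ± 0.20 (adjusted p = 0.00709). Its level was 9.26, 8.45 and 8.46 in the Prkar1a+/- lesions, 8.54 and 9.14 in the double heterozygote lesions, and 9.01 to 10.07 (median 9.57) elsewhere. Of the lesion arrays, 1 of each genotype reached into the non-lesion range. Without the double heterozygote lesion replicate 1 the difference was -0.61 and did not pass (adjusted p = 0.0528). Sema3e, the ligand of plexin-D1, was detected on 0 of 5 lesion arrays and 7 of 8 others and was at least 1.20-fold lower. Its probe passed the filter through the non-lesion arrays alone, so its test is no separate support, though it is counted among the lower genes. Sema3b differed by -0.35 ± 0.10 (adjusted p = 0.0105), but 2 dimmer probes of the gene differed by -0.02 and -0.03. Sema3f was higher by 0.34 ± 0.10 (adjusted p = 0.0146). Without the double heterozygote lesion replicate 1 neither passed, at -0.25 for Sema3b and 0.27 for Sema3f. As a mean over its probes Sema3b differed by -0.13 (adjusted p = 0.176), and with 75th percentile scaling Sema3f by 0.25 (adjusted p = 0.0584). Sema3a, the semaphorin known to restrain osteoclasts, read 7.16, 8.59 and 8.07 in the Prkar1a+/- lesions and 8.69 and 7.23 in the double heterozygote lesions. Both values near 7.2 lay within the non-lesion range of 7.09 to 7.85, and the difference of 0.52 ± 0.27 did not pass (adjusted p = 0.122). It passed at 0.72 without the Prkar1a+/- lesion replicate 1 (adjusted p = 0.0249) and at 0.89 without the double heterozygote lesion replicate 2 (adjusted p = 0.0159), the arrays with those low values. Sema3d, at 0.43 ± 0.23, did not pass either, but did at 0.62 without the Prkar1a+/- lesion replicate 1.

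Of the 9 tested membrane-bound semaphorins of classes 4 to 7, 6 were higher and 1 was lower. The calls of 3 of the 6, Sema4a, Sema5a and Sema7a, each ended without the double heterozygote lesion replicate 1, and likewise without the Prkar1a+/- lesion replicate 2. Set against their own controls, 3 of the 9 (33.3%) were higher in the Prkar1a+/- lesions, against 20.7% of all genes. In the double heterozygote lesions 1 of the 9 (11.1%) was higher, against 15.5% of all genes. Sema4b was 9.13, 9.34 and 9.05 in the Prkar1a+/- lesions, 9.65 and 9.17 in the double heterozygote lesions, and 8.12 to 8.52 (median 8.34) in non-lesion bone. The ranges did not overlap, and the log2 difference was 0.97 ± 0.11, a 1.96-fold rise (adjusted p = 2.98e-05). Sema4d, the osteoclast semaphorin, read 6.43, 7.41 and 6.60 in the Prkar1a+/- lesions, 6.82 and 6.22 in the double heterozygote lesions, and 5.43 to 6.06 (median 5.91) elsewhere. It was higher in every lesion array, highest in the Prkar1a+/- lesion replicate 2, and rose 1.80-fold (0.85 ± 0.18, adjusted p = 0.00192). Sema4a, a semaphorin of immune cells, read 8.45, 10.13 and 8.95 in the Prkar1a+/- lesions and 9.75 and 8.93 in the double heterozygote lesions. Its non-lesion range of 8.03 to 9.23 (median 8.36) held 3 of the 5 lesion values, and its difference of 0.79 ± 0.29 passed narrowly (adjusted p = 0.0356). Across the lesions Sema4a and Sema4d were both highest in the Prkar1a+/- lesion replicate 2. So were Efna1, Efna4, Efna5, Efnb2, Epha2, Sema3f and Sema6b. In that array the mean of the macrophage list was also highest, at 10.75, and the T and NK cell markers averaged 7.58. The means of the skeletal muscle and adipocyte lists were lowest there, at 9.68 and 5.86. The part of these cell types in the results of Sema4a and Sema4d was not tested. Without that array the difference of Sema4a was 0.55 and no longer passed (adjusted p = 0.0792), and it also failed without any of 6 other arrays, at 0.58 to 0.79. With the level of Xist, the RNA of the inactive X chromosome and so a measure of sex, as a covariate it was 0.65 and did not pass (adjusted p = 0.096).

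Sema7a, a lipid-anchored semaphorin that binds plexin-C1 and integrins, rose by 0.69 ± 0.23 (adjusted p = 0.0216). Sema6b rose by 0.62 ± 0.14 (adjusted p = 0.00242) and by 0.51 at a second probe, and Sema5a rose by 0.55 ± 0.18 (adjusted p = 0.0219) and by 0.58 at a second probe. Without the double heterozygote lesion replicate 1, Sema7a differed by 0.40 and Sema5a by 0.27, and without the Prkar1a+/- lesion replicate 2 by 0.57 and 0.49, and none of these passed. With Xist as a covariate Sema7a differed by 0.62 and did not pass (adjusted p = 0.0554). Sema6c went the other way. Its level was 5.20, 4.68 and 4.88 in the Prkar1a+/- lesions, 4.76 and 5.52 in the double heterozygote lesions, and 5.61 to 6.44 (median 5.98) in non-lesion bone. It was detected on 1 of 5 lesion arrays and on 8 of 8 others, and was lower in every lesion array, with a log2 difference of -0.97 ± 0.18 (adjusted p = 0.000593). Sema6d, a ligand of plexin-A1 in osteoclasts, and Sema4f differed by 0.37 and 0.30 and did not pass. A dimmer Sema6d probe was detected on 2 lesion arrays and 0 others. It passed the filter through those lesion arrays alone, and no fold or p-value is given for it. Sema6d passed at 0.45 without the Prkaca+/- replicate 4, and Sema4f at 0.44 without the WT replicate 3.

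Of the 7 tested semaphorin receptors, plexins and neuropilins, 1 was higher and 1 was lower. Plxnd1, the receptor of semaphorin 3E, rose by 0.70 ± 0.12 (adjusted p = 0.000467), higher in all 5 lesion arrays, at 5.76 to 6.47 against 5.14 to 5.64. Plxnb3 differed by -0.37 ± 0.15 and passed narrowly (adjusted p = 0.0493), but not after any of 9 arrays was left out (-0.40 to -0.26) or with Xist as a covariate (-0.31, adjusted p = 0.121). Plxnb1, the osteoblast receptor of semaphorin 4D, differed by 0.21 ± 0.22 (interval of the fold 0.824 to 1.61), Plxna2 by 0.04 ± 0.13 and Plxnc1 by 0.00 ± 0.10. Nrp1, the co-receptor of semaphorin 3A and of vascular endothelial growth factor, read 10.42 to 10.94 in lesions and 10.33 to 10.94 elsewhere, a difference of 0.12 ± 0.14.

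The probes of Nrp2, co-receptor of semaphorin 3F, gave different answers. The brighter probe, which stands for the gene, differed by -0.42 ± 0.28 and did not pass (adjusted p = 0.237). The dimmer probe read 6.43, 6.68 and 6.68 in the Prkar1a+/- lesions, 6.58 and 6.18 in the double heterozygote lesions, and 5.15 to 5.80 (median 5.45) elsewhere. It rose by 1.02 ± 0.13 (adjusted p = 5.18e-05) with no overlap. Which transcripts each probe reads was not examined, and no direction is given for the gene.

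**Figure D3:**
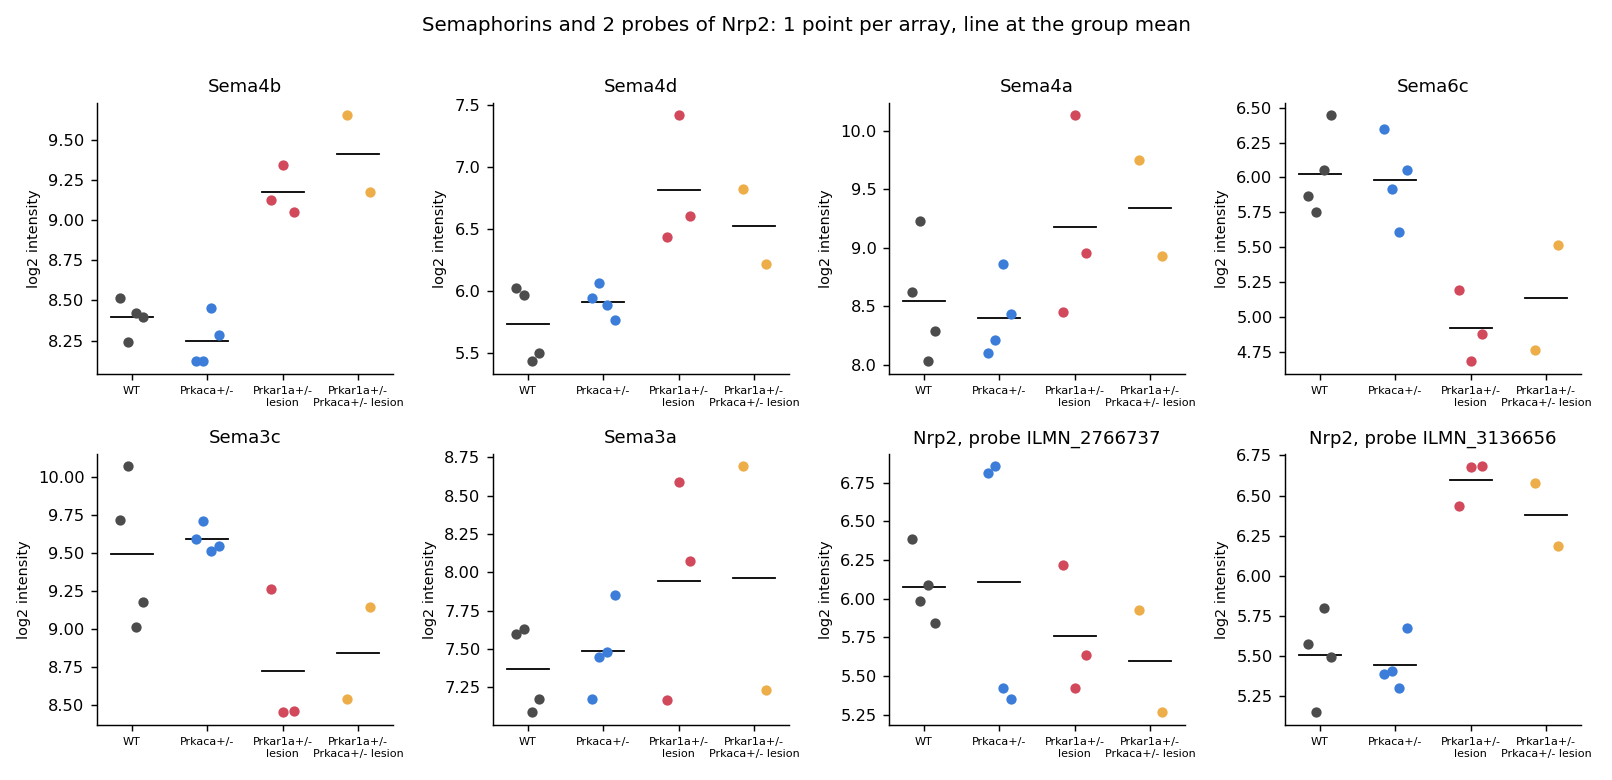
Log2 intensity of 6 semaphorins and of both tested Nrp2 probes in the 4 groups, 1 point per array and a line at each group mean. Sema4b and Sema4d lie higher and Sema6c lower in all 5 lesion arrays, whereas the Nrp2 probes differ from each other, at -0.42 and 1.02.

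Slit ligands and Robo1 rose together, with 3 of 4 tested genes of the pair higher and 0 lower. Robo1, the receptor of Slits on many migrating cells, read 9.40, 9.84 and 9.72 in the Prkar1a+/- lesions and 9.94 and 9.39 in the double heterozygote lesions. Non-lesion arrays ran from 7.62 to 8.43 (median 8.20), well below all lesion arrays. The rise was 2.99-fold (interval 2.33 to 3.85), a log2 difference of 1.58 ± 0.17 (adjusted p = 1.45e-05). Slit2 read 9.08, 10.30 and 10.47 in the Prkar1a+/- lesions, 10.41 and 9.37 in the double heterozygote lesions, and 8.20 to 9.08 (median 8.42) elsewhere. Its lowest lesion value met the top of the non-lesion range, and the log2 difference was 1.37 ± 0.27 (adjusted p = 0.000978). Slit3, known to promote bone formation, rose by 0.61 ± 0.11 (adjusted p = 0.00073), at 7.05 to 7.57 against 6.37 to 6.94. Robo4, a receptor of endothelial cells, differed by -0.06 ± 0.16 and did not pass (adjusted p = 0.76).

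Of the 7 tested netrin and Unc5 genes, the receptors Unc5b and Unc5c were higher, Ntn4 and Ntng1 were lower, and Ntn3, Ntn5 and Unc5a did not pass. Unc5b is a netrin receptor that mediates repulsion and is known from endothelial tip cells. Its level was 10.07, 10.67 and 10.45 in the Prkar1a+/- lesions, 10.72 and 9.62 in the double heterozygote lesions, and 7.44 to 8.67 (median 8.15) in non-lesion bone. All lesion arrays stood clear of the others. The rise of 4.52-fold (interval 3.33 to 6.13; log2 difference 2.18 ± 0.20, adjusted p = 5.13e-06) was the largest of the 46 genes. Unc5c, a related receptor, read 5.95, 6.32 and 6.51 in the Prkar1a+/- lesions, 6.34 and 6.44 in the double heterozygote lesions, and 4.80 to 5.77 (median 5.18) elsewhere. It was detected on all 5 lesion arrays and on 3 of 8 others, and rose 2.17-fold (1.12 ± 0.17, adjusted p = 0.000179).

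Ntn4 encodes netrin-4, a protein of basement membranes. Its level was 5.92, 5.40 and 5.48 in the Prkar1a+/- lesions, 5.43 and 5.59 in the double heterozygote lesions, and 5.90 to 6.98 (median 6.48) in non-lesion bone. Only the Prkar1a+/- lesion replicate 1 reached the lowest non-lesion value, and the log2 difference was -0.84 ± 0.19 (adjusted p = 0.00246). Ntng1, encoding the lipid-anchored netrin-G1, differed by -0.64 ± 0.16 (adjusted p = 0.0049) and by -0.70 at a second probe, where all lesion arrays were lower. Ntn5 (-0.51 ± 0.24) and Ntn3 (0.26 ± 0.13) did not pass, but without the Prkar1a+/- lesion replicate 1 both did, at -0.63 and 0.34, and Ntn5 also at -0.80 without the double heterozygote lesion replicate 1. Unc5a was detected on 0 of 5 lesion arrays and 2 of 8 others.

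**Figure D4:**
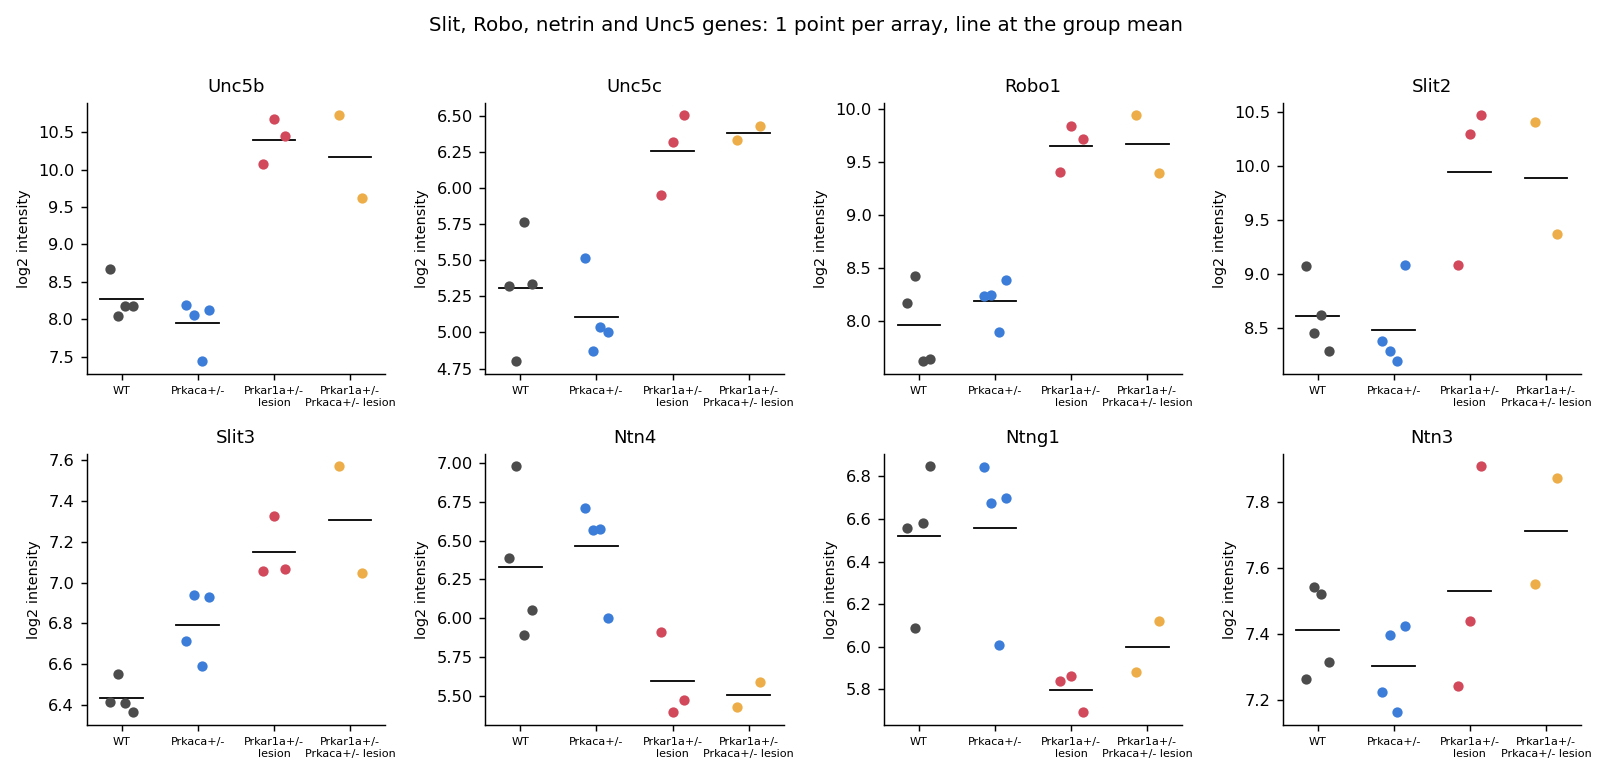
Log2 intensity of 8 Slit, Robo, netrin and Unc5 genes in the 4 groups, 1 point per array and a line at each group mean. Unc5b, Unc5c, Robo1 and Slit3 lie higher in all 5 lesion arrays, and most lesion points of Ntn4 and Ntng1 lie below the non-lesion points.

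The mean of the skeletal muscle list was lower in all lesion arrays than in all others and so followed the groups. With that mean as a covariate in the limma fit, 10 members remained higher and 1 lower, all of them among the 27. These are 23.9% of the members, and 20.4% of all genes passed in the same fit. They were Unc5b (1.94), Efnb1 (1.76), Efna5 (1.64), Robo1 (1.37), Epha2 (1.13), Efna4 (1.08), Unc5c (1.04), Efnb2 (0.95), Sema4b (0.86), Plxnd1 (0.75) and Sema6c (-0.72), as log2 differences. The difference of Sema4a dropped to 0.003 and that of Slit2 to 0.89 (adjusted p = 0.0848). The covariate separates the groups by itself, so the part of muscle content in the other 16 calls was not tested. On the deposited scores, which are not on a log scale, 7 of the 27 calls were lost, those of Efna4, Plxnd1, Sema3e, Sema4a, Sema4d, Sema6c and Unc5c.

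Each lesion group was then set against the bone of its own Prkaca genotype, so that no sample was shared. Prkar1a+/- lesions, 3 against 4 WT arrays, had 18 members higher and 6 lower, 24 of 46 in all, where 20.7% of all genes were higher, 19.3% lower and 40% either. The 6 largest changes were rises, in Unc5b (2.13 ± 0.27, adjusted p = 0.000125), Efna5 (2.02 ± 0.19, adjusted p = 1.54e-05), Robo1 (1.69 ± 0.22, adjusted p = 0.000159), Efnb1 (1.68 ± 0.17, adjusted p = 2.30e-05), Epha2 (1.63 ± 0.24, adjusted p = 0.000325) and Epha3 (1.57 ± 0.29, adjusted p = 0.00129). Sema6c, detected on 0 of these 3 lesion arrays, was at least 1.73-fold lower. Epha7, an A class receptor that did not pass over all lesions, was higher by 1.03 ± 0.31 (adjusted p = 0.0178), with 5.99, 5.75 and 7.27 in the lesions. Without the highest of these, replicate 3, it differed by 0.56 and did not pass (adjusted p = 0.0706).

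Double heterozygote lesions, 2 against 4 Prkaca+/- arrays, had 13 members higher and 4 lower, 17 of 46 in all, where 15.5% of all genes were higher, 13.5% lower and 29.1% either. Again the 6 largest changes were rises, in Unc5b (2.22 ± 0.31, adjusted p = 0.000442), Efnb1 (1.81 ± 0.19, adjusted p = 6.95e-05), Efna5 (1.62 ± 0.22, adjusted p = 0.000349), Robo1 (1.48 ± 0.25, adjusted p = 0.00172), Slit2 (1.41 ± 0.40, adjusted p = 0.021) and Epha2 (1.39 ± 0.27, adjusted p = 0.00348). The 4 lower genes were Ntn4 (-0.95), Sema6c (-0.84), Sema3b (-0.50) and Sema3e, the last at least 1.26-fold lower. Without the double heterozygote lesion replicate 1 all 4 failed, at -0.87 for Ntn4, -0.46 for Sema6c, -0.29 for Sema3b and with an adjusted p of 0.289 for Sema3e, as did Slit2 at 0.89, Slit3 at 0.25 and Efna1 at 0.94 (adjusted p = 0.0832). A single lesion array then stands for its group and is assumed to vary like the others. Without replicate 2, Plxnd1 failed at 0.44, Efna1 at 0.69, Efna4 at 1.05 and Ntn4 at -1.03, and Sema3e failed with an adjusted p of 0.055.

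Against WT, all 3 lesion arrays lay above all 4 controls for 19 members and below them for 4, where the shares over all genes were 21.4% and 20.1%. Against Prkaca+/- bone, both lesion arrays lay above all 4 controls for 19 members and below them for 5, where the shares were 25.7% and 26.1%. Both comparisons had the same sign for 42 of 46 members (91.3%), and for 85.7% of all genes. Higher in both at the threshold were 13 members (28.3%, against 13.8% of all genes), namely 5 ephrins, Epha2, Slit2, Slit3, Robo1, Unc5b, Unc5c, Sema4b and Plxnd1. Lower in both were 3 (6.52%, against 11.6%), Sema6c, Ntn4 and Sema3e, the last with a probe that passed the filter through non-lesion arrays alone. Whichever array was left out, 8 of the 13 and 0 of the 3 still passed in both. The 5 lost from the first were Efna1, Efna4, Plxnd1, Slit2 and Slit3. A further 8 members passed against WT alone and 1, Sema3b, against Prkaca+/- alone. As a description over 46 genes, which are not independent, Pearson's r between both sets of differences was 0.904, and over all genes it was 0.856.

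**Figure D5:**
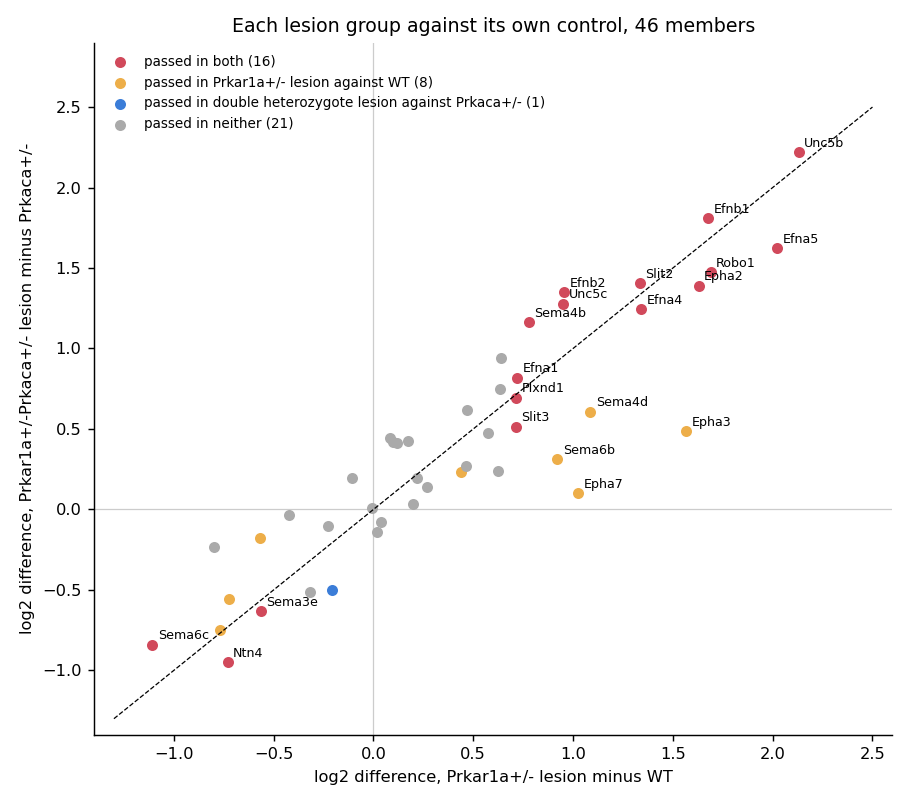
Log2 difference of Prkar1a+/- lesions against WT (x axis) and of double heterozygote lesions against Prkaca+/- bone (y axis) for 46 genes, with the line of equal differences dashed. The 16 genes that passed in both comparisons are red, and Epha3, Epha7, Sema4d and Sema6b lie below the line, with 1.57 and 0.49 for Epha3.

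The difference between both lesion effects was tested itself, and 0 members passed, as did 0% of all genes. Unadjusted p-values were under 0.05 for 2 members (4.35%), against 2.56% of all genes. These were Epha3 (-1.08, 95% interval -2.02 to -0.15) and Sema6b (-0.61), both smaller in the double heterozygotes. A second Sema6b probe averaged 6.79 in Prkar1a+/- lesions against 6.17 in WT, and 6.59 in double heterozygote lesions against 6.18 in Prkaca+/- bone. The median width of the 95% interval of a difference between both lesion effects was 1.46 log2 units. Set directly against Prkar1a+/- lesions, double heterozygote lesions had 0 members higher or lower at an adjusted p under 0.05. Epha7 was lower in both double heterozygote lesions, at 5.55 and 5.02, than in all 3 others, a difference of -1.06 ± 0.37 with an unadjusted p of 0.0126 and an adjusted p of 1.00. Ephb4, Ntng1 and Unc5a were higher in both than in all 3 others, Unc5a without detection on any of them. The second Ntng1 probe overlapped, at 5.35 and 5.10 against 5.49, 5.34 and 5.26. Over all genes 6.63% were higher and 7.2% lower without overlap. The interval of the difference was -0.92 to 0.47 for Unc5b, -0.81 to 0.18 for Efna5 and -0.49 to 0.37 for Efnb1.

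In bone without lesions, Prkaca+/- samples were set against WT samples, 4 against 4. By limma 0 members passed, as did 0% of all genes, and the differences ran from -0.34 to 0.45. At an unadjusted p under 0.05 there was 1 member (2.17%), against 1.53% of all genes. It was Slit3, which was higher by 0.36 (95% interval 0.06 to 0.66) in all 4 Prkaca+/- arrays. Epha3 was also higher in all 4 at its brightest probe, by 0.45 (interval -0.12 to 1.02). Its other tested probes overlapped between the groups, with means of 5.69 in WT and 5.71 in Prkaca+/- bone, and of 5.06 and 5.07. Over all genes, 0.673% had all 4 Prkaca+/- arrays higher. Prkaca itself read 10.19 to 10.93 in these arrays and 11.33 to 11.62 in WT. It was also low in lesions, at 10.02 to 10.99 in the Prkar1a+/- lesions, whose labels name no Prkaca deletion, and at 9.19 and 9.68 in the double heterozygote lesions.

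Co-receptors and transducers of the same pathways were taken from a list of 60 genes, of which 42 were tested. In lesions 17 were higher and 4 lower, where 26.2% of all genes were higher and 25.8% lower. The median log2 difference was 0.18 over the 42 genes and -0.008 over all genes. The largest rises were in Tyrobp (2.16 ± 0.33), the adaptor that links plexin-A1 and Trem2 in osteoclasts and is made by myeloid cells in general, in Sdc3 (1.83 ± 0.16), a heparan sulphate proteoglycan, and in Chl1 (1.55 ± 0.22), a neural adhesion molecule detected on 5 lesion arrays and 1 other. Neo1, the netrin receptor neogenin, rose by 1.32 ± 0.13, and Trem2 rose by 1.04. The largest falls were in Mical3 (-1.37 ± 0.27), Rgmb (-0.80) and Rgma (-0.65), the last 2 encoding ligands of neogenin. Against the same bone, 5 of 7 tested macrophage markers and 7 of 9 osteoclast markers were higher, and their part in the rise of Tyrobp and Trem2 was not tested.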

How the data were processed

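Per the file headers, the deposited table used here gives the linear, not normalised mean intensity of 25697 probes on 13 Illumina arrays, each with its detection p-value. In this table the authors left intensities empty where the deposited detection p-value was above 0.1. The second deposited table holds scores that are z-scores of linear intensity within each array, found by setting both tables against each other. They served as an alternative. Per the labels' protocols, Trizol-extracted RNA was amplified to biotinylated cRNA. Of the scanner and its software nothing is said in the labels.

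The background of each array, its mean and SD, was read from the line of intensity against normal quantiles of detection p-values between 0.01 and 0.1, and empty intensities were filled through that line. Normexp correction, an offset of 16, quantile normalisation and log2 followed. The limma package (3.58.1, R 4.3.3) was fitted with a mean for each of 4 groups, which leaves 9 residual degrees of freedom, and p-values were adjusted by Benjamini-Hochberg across 16226 probes, at a threshold of 0.05. The brightest tested probe, by its mean over arrays, stood for a gene. Where a probe was detected on no array of the dimmer side, the fold is a bound, the brighter mean against a floor, which on each array is the lowest detected signal or the probe's own value if that is higher. The fit was tested on simulated data. The number of arrays limits the precision.

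Full values are given for the 16 members with the largest lesion difference past the threshold and for up to 6 in each other comparison. The Nrp2 probes, Sema3a, Sema3c and the Epha7 values were added after their values were seen. Genes were named from the platform annotation, which gave 1 symbol for 23978 probes. The members, the marker lists and the pathway list were chosen with earlier results of these data known. In 23 alternatives the background, offset, scaling, filter, probe rule, covariates, replicate block, deposited scores or 1 array at a time were changed.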

Additional observations from a re-analysis of the deposited data

Results flagged for a closer look

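In the groups of 4 arrays, the highest or lowest value of a gene was set against the other 3 by Dixon's criterion. Of 92 such groups of member genes 4 stood out (4.35%), and chance gives about 5%. Efna5 was 9.23 in the Prkaca+/- replicate 4 and 9.02 to 9.04 in the other 3 Prkaca+/- arrays. Epha7 was 4.85 in the Prkaca+/- replicate 1 and 5.27 to 5.32 in the others. Sema5a was 9.55 in the WT replicate 1 against 9.07 to 9.12 in the other WT arrays, and 9.46 in the Prkaca+/- replicate 4 against 9.02 to 9.08 in the other Prkaca+/- arrays. Both high Sema5a values overlap the lesion range of 9.23 to 10.31.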

How the results depend on the processing

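No called difference of a member gene changed sign under any of the 23 alternatives. For lesion against non-lesion bone, 7 of 27 calls held under every alternative in which the gene was tested (Efna5, Efnb1, Efnb2, Epha2, Robo1, Sema4b and Unc5b, of which Epha2 has no probe detected on all arrays), and 20 held whichever array was left out, with 16 to 24 genes higher and 6 to 7 lower. The calls lost without 1 array were those of Plxnb3, Sema3b, Sema3c, Sema3f, Sema4a, Sema5a and Sema7a. Without double heterozygote lesion replicate 1, Sema3b differed by -0.25 and Sema3c by -0.61. The muscle covariate left 10 higher and 1 lower against non-lesion bone, 5 and 0 for Prkar1a+/- lesions against WT, and 0 lower for double heterozygote lesions against Prkaca+/- bone. With probes detected on all arrays, which leaves 31 member genes, the lower counts were 4, 3 and 2 in these comparisons. Without background correction 2 were lower in the last, and the log2 differences of dim genes shrank, for example to 0.62 for Efna4, 0.78 for Epha2 and -0.45 for Sema6c. With Xist as a covariate 18 were higher and 6 lower for all lesions, without Sema4a, Sema7a and Plxnb3. The deposited scores gave 15 higher and 7 lower for all lesions, and 8 higher and 1 lower for double heterozygote lesions. The 7 were not the same genes as before. Sema3e and Sema6c no longer passed, while Epha4 (adjusted p = 0.024) and the brighter of the disagreeing Nrp2 probes (adjusted p = 0.0343) newly passed as lower in limma. Leaving out 1 array gave 15 to 20 higher and 1 to 7 lower for Prkar1a+/- lesions against WT, with 1 lower without lesion replicate 3, 2 without lesion replicate 2 and 3 without WT replicate 1 or 2. It gave 10 to 13 higher and 0 to 5 lower for double heterozygote lesions, with 0 lower without lesion replicate 1, 2 without lesion replicate 2 and 1 without Prkaca+/- replicate 1, 2 or 4. The cause of these changes was not tested. The comparisons with 0 calls had 0 under every alternative. Deviations from the group mean were correlated for 16 pairs of same-numbered samples of different groups. Of these pairs 6 had an r over 0.1 and 3 an r under -0.1 (r from -0.24 to 0.36), so the numbers were not taken as pairing. The deviations of the 2 double heterozygote lesions mirror each other by construction. With the replicate block, 20 members were higher and 7 lower for all lesions. These held 25 of the 27 calls, without Sema4a and Plxnb3. Epha7 newly passed at 0.74 (adjusted p = 0.0133), as did the brighter of the disagreeing Nrp2 probes at -0.67 (adjusted p = 0.0361). Prkar1a+/- lesions had 17 higher and 6 lower, and double heterozygote lesions 11 and 3.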
